A study of Mus musculus with 14 samples.

Results

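Smoc1, Smoc2, Sparc and Sparcl1 are 4 of the 37680 genes in a count table of mouse colon epithelium. They were taken by name, as the genes for the SPARC-related modular calcium-binding proteins and for the SPARC and SPARC-like proteins, and Smoc2 was chosen because its transcript was higher in the Smad4 KO epithelium in these same libraries. The values of Smoc2 between the genotypes are therefore given as a description, with no test. Of the 4 genes, 3 had enough counts to be tested (at least 10 counts in at least 3 libraries), and Sparcl1 did not.

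RNA-seq was performed on epithelium released from the whole colon of adult mice of a C57/BL6-enriched background with EDTA, which separates crypts from the underlying mesenchyme. Smad4 is the shared intracellular mediator of TGF-β and BMP signaling. In the Smad4 IEC-KO mice (KO), Smad4 f/f alleles are deleted in the intestinal epithelium by a tamoxifen-inducible Cre, Villin-CreERT2, so that cells other than epithelium keep the gene, and the other mice are labelled wildtype (WT). There were 4 libraries of WT on water, 4 labelled KO on water, and 3 of each genotype after 3 d of 2.5% DSS, a sulfated polysaccharide given ad libitum that injures the colonic mucosa. Whether each library came from 1 animal is not stated in the labels, so the spread between libraries may in part be technical.

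SPARC family proteins are secreted, bind calcium, and are matricellular: they sit in the extracellular matrix and change how cells meet it rather than building its structure. Smoc proteins bind heparan sulfate and act on BMP signaling outside the cell, and Smoc2 is known as a transcript of Lgr5-positive stem cells at the crypt base. Sparc binds collagen and is made mainly by fibroblasts and endothelium, and Sparcl1 (hevin) is mainly a product of vessels and stroma.

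In mm9, with GENCODE M1 gene models, Smoc2 (ENSMUSG00000023886) lies on the plus strand at chr17:14416513-14541797, with 2867 bp of merged exons. Smoc1 (ENSMUSG00000021136) lies on the plus strand at chr12:82127795-82287401 with 3496 bp of exons. Sparc (ENSMUSG00000018593) lies on the minus strand at chr11:55208002-55233582 with 3367 bp, and Sparcl1 (ENSMUSG00000029309) on the minus strand at chr5:104508130-104543107 with 3114 bp. None of the 4 shares a 50-base stretch of transcript with another protein-coding gene, counted as 0 shared stretches for each. An exon of Sparcl1 overlaps Gm16990, a lincRNA of the other strand, and the strand setting of the counting is not given in the sources used here, so the few Sparcl1 reads cannot be assigned to either gene with certainty.

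Total counts ranged from 12882827 to 26087231 per library, and all levels below are counts per 1000000 counts of a library (CPM) after TMM scaling, a scaling of library sizes by the bulk of genes, unless raw counts are named. Smad4, the deleted gene, was at 133 ± 18.6 CPM (SD, n = 4) in WT on water, 176 ± 6.14 CPM (SD, n = 3) in WT after DSS and 42.3 ± 1.79 CPM (SD, n = 3) in KO after DSS. The library labelled KO water replicate 1 held 158 CPM of Smad4, within the range of WT on water, while the other 3 libraries of its group held 35.1 to 46.8 CPM. It was kept under its label, and the values of the members and named genes on water are given with and without it where they rest on KO. The study's figure legends give 3 replicates for KO on water, where 4 libraries carry that label. Which of these 4 the study used is not stated. Colon epithelium markers summed to between 20432 and 32033 CPM in every library.

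Smoc2, a secreted protein that acts on BMP signaling, was the abundant member, and its transcript was higher in KO than in WT both on water and after DSS. The 4 WT libraries on water held 38.9, 45.1, 63.1 and 45.0 CPM of Smoc2. The library labelled KO water replicate 1 held 72.2 CPM and KO water replicates 2 to 4 held 95.8, 99.8 and 87.9 CPM. The 3 WT libraries after DSS held 29.4, 19.5 and 32.4 CPM, and the 3 KO libraries after DSS held 80.7, 73.2 and 81.2 CPM.

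No KO library overlapped with a WT library in Smoc2, and the library with Smad4 at the level of WT was the lowest of all 7 libraries labelled KO and still above every WT library. The WT libraries after DSS were the lowest of all. The share of all genes that separate groups without overlap is not given, so non-overlap is a description throughout. These values rest on raw counts of 421 to 2425 per library, so counting error was small beside the spread between libraries.

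**Figure D1:**
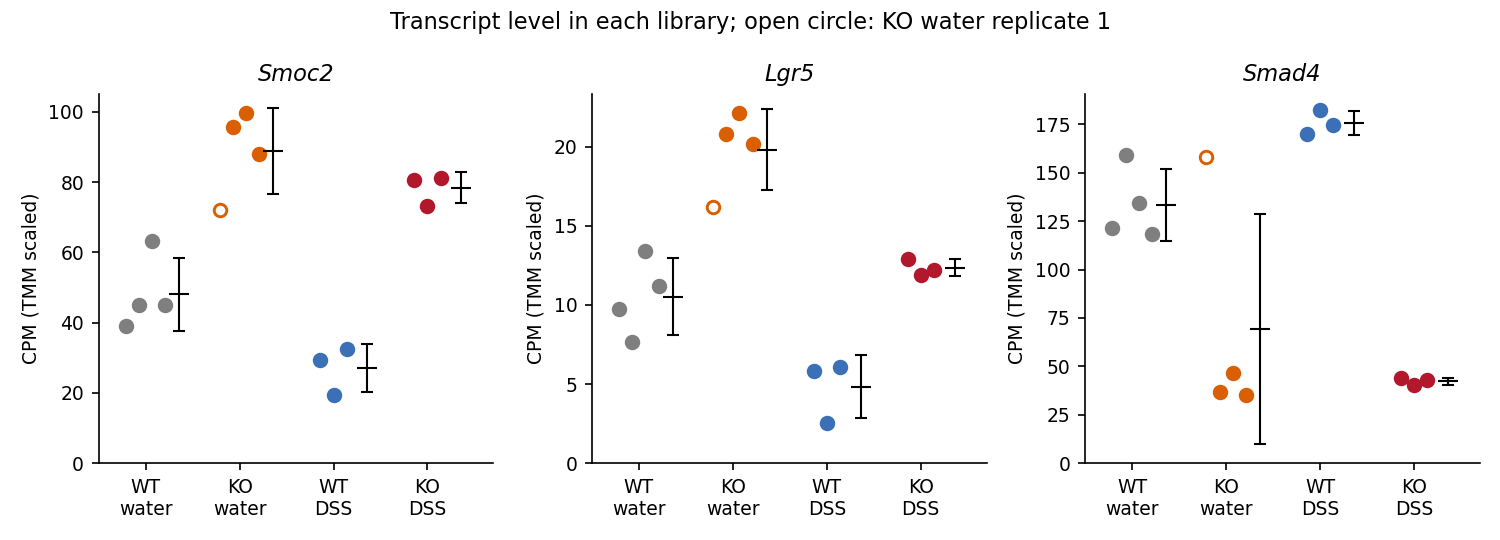
Smoc2, Lgr5 and Smad4 in each of the 14 libraries, in CPM after TMM scaling. Each point is 1 library, the open circle is the library labelled KO water replicate 1, and the bars give the group mean ± SD with that library included. Smoc2 lies at 72.2 CPM or more in all KO libraries and at 63.1 CPM or less in all WT libraries, while the open circle sits with WT in the Smad4 panel.

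After DSS, the mean of Smoc2 was 78.4 ± 4.46 CPM (SD, n = 3) in KO and 27.1 ± 6.76 CPM (SD, n = 3) in WT, a ratio of 2.89, and the lowest KO library exceeded the highest WT library 2.26-fold. The fitted log2 fold change over all 14 libraries was 1.53 (SE 0.20). On that scale, 0.800% of the 15127 tested genes had a higher value. At an adjusted p below 0.05, 2 genes were called in this comparison (0.0132% of those tested), Smoc2 higher and Mal lower, and since Smoc2 was picked from this contrast nothing is read from its call.

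On water, the mean of Smoc2 was 88.9 ± 12.2 CPM (SD, n = 4) in KO and 48.0 ± 10.5 CPM (SD, n = 4) in WT, a ratio of 1.85, and the lowest KO library was 1.14 times the highest WT library. Without KO water replicate 1, the KO mean was 94.5 ± 6.01 CPM (SD, n = 3), the ratio of the means 1.97 and the ratio of lowest to highest 1.39. The fitted log2 fold change was 0.89 (SE 0.17) over all libraries and 0.98 (SE 0.18) without that library. The background of this comparison was much larger, with 1276 genes called (8.44%), or 1154 of 15074 (7.66%) without KO water replicate 1.

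The library names carry letter prefixes whose meaning is not stated. On water, the WT and KO libraries that share the prefix MP held 45.0 and 87.9 CPM of Smoc2, and the WT library with prefix Z held 63.1 CPM against 72.2 and 95.8 CPM in the KO libraries with that prefix. After DSS, the 2 WT and 3 KO libraries with prefix D gave a log2 fold change of 1.68 (SE 0.17). KO was thus above WT within each prefix that holds both genotypes of 1 treatment.

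Per kilobase of merged exons, which allows levels of different genes to be compared, Smoc2 was at 16.8 CPM per kb in WT on water, above 76.0% of 15106 tested genes with a length, and at 31.0 CPM per kb in KO on water, above 86.6%, or 33.0 CPM per kb without KO replicate 1. After DSS it was at 9.46 CPM per kb in WT, above 63.8%, and at 27.3 CPM per kb in KO, above 84.7%. The order of the group means was KO on water, KO after DSS, WT on water and WT after DSS. KO on water and KO after DSS overlapped in their libraries, and the other neighbours in this order did not.

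The response of Smoc2 to DSS within a genotype was not the contrast it was chosen on, but the same libraries entered that choice, so the p-values below are not independent of it. In WT, Smoc2 was lower after DSS, at 0.564 times the mean on water, with no overlap between the 3 libraries after DSS and the 4 on water. The log2 fold change was -0.82 (SE 0.19), and it did not pass the threshold in edgeR over all 14 libraries (adjusted p = 0.11). In this comparison edgeR called 0 genes (0% of those tested), although 3174 had an unadjusted p below 0.05. DESeq2 called 851 genes in a model of all libraries and 1789 in a model of the 7 WT libraries, and in these Smoc2 had an adjusted p of 0.00795 and 0.01, respectively. Over all alternatives with edgeR or DESeq2, the adjusted p of Smoc2 ran from 0.00795 to 0.342. The direction was the same throughout, and whether the difference passed the threshold depended on the tool, on the filter on low counts and on single libraries, since edgeR without KO water replicate 4 gave an adjusted p of 0.042.

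In KO, the difference between DSS and water was smaller than the spread between libraries. The mean of Smoc2 after DSS was 0.881 times that on water, the groups overlapped, and the log2 fold change was -0.18 (SE 0.19, edgeR adjusted p = 0.84), with 10 genes called in all (0.0661%). With a block for the name prefix its sign turned (0.26, SE 0.27). Without KO water replicate 1 the ratio was 0.829, the groups no longer overlapped, and the log2 fold change was -0.27 (SE 0.19, edgeR adjusted p = 0.73). The difference between both responses, which again contains the contrast that Smoc2 was chosen on, was 0.64 (SE 0.27) on the log2 scale and is given with no test. Without that library it was 0.55 (SE 0.27). In that comparison 1 gene was called (0.00661%), and it was not a member.

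**Figure D2:**
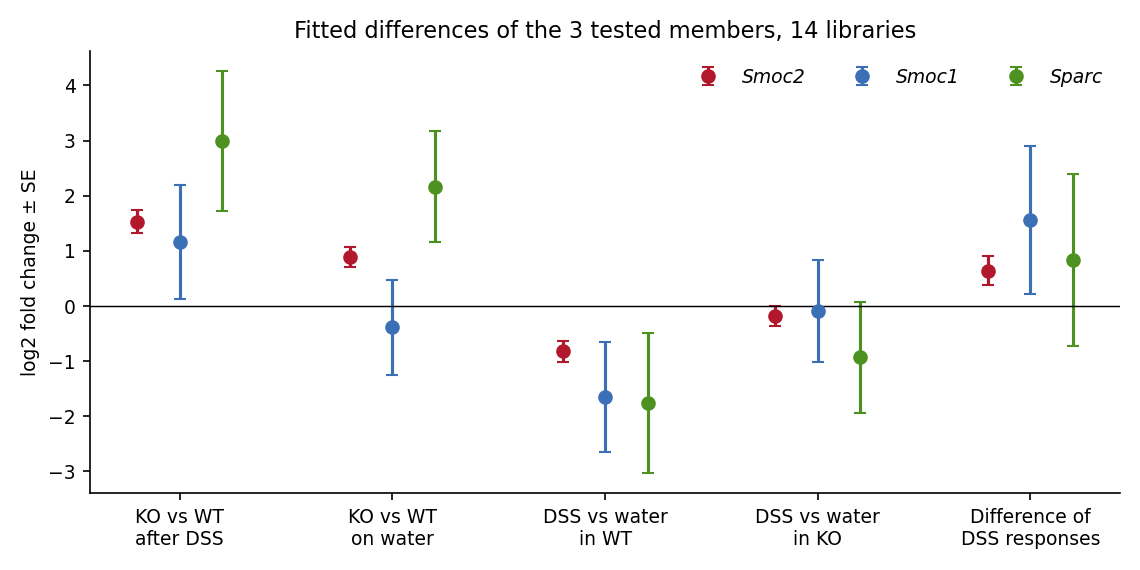
Fitted log2 fold changes with SE of Smoc2, Smoc1 and Sparc in the 5 comparisons, from 1 edgeR model of all 14 libraries. Smoc2 has the smallest errors, with 1.53 after DSS and 0.89 on water for KO against WT. The errors of Smoc1 and Sparc, which have few counts, are wider.

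Across libraries, the transcript most like Smoc2 was Lgr5, the receptor for R-spondins that marks crypt base stem cells. Over the 14 libraries, the Pearson correlation of log2 CPM between them was 0.945, the highest among 12929 genes with a mean of at least 20 counts. Both genes differ between the groups, and libraries that share a group share that difference. On deviations from the group means, which take this out, the correlation was 0.858, the second highest. These correlations are descriptions over 14 points.

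Lgr5 was at 10.5 ± 2.43 CPM (SD, n = 4) in WT and 19.8 ± 2.56 CPM (SD, n = 4) in KO on water, and at 4.83 ± 1.97 CPM (SD, n = 3) in WT and 12.3 ± 0.535 CPM (SD, n = 3) in KO after DSS. Without KO water replicate 1, which held 16.2 CPM of Lgr5, the KO mean on water was 21.0 ± 1.01 CPM (SD, n = 3). Lgr5 rose in KO on water (log2 fold change 0.92, SE 0.24, edgeR adjusted p = 0.036), with 1.01 without that library. After DSS, its log2 fold change between the genotypes was 1.35 (SE 0.28, edgeR adjusted p = 0.21), and it was called by DESeq2 (adjusted p = 0.00379 with all libraries), with a range of 0.000106 to 0.86 over the alternatives.

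The ratio of Smoc2 to Lgr5 in CPM moved less between the groups than either gene. It ran from 4.00 to 5.88 in WT and from 4.36 to 4.60 in KO on water, and from 5.04 to 7.63 in WT and from 6.17 to 6.64 in KO after DSS. Within each treatment the genotypes overlapped, and in KO the 3 libraries after DSS lay above the 4 on water.

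**Figure D3:**
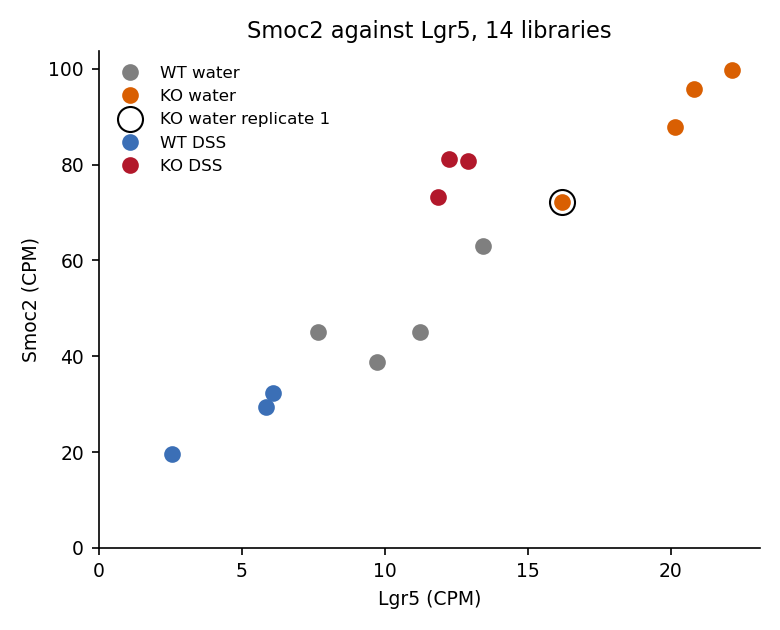
Smoc2 against Lgr5 in CPM in the 14 libraries, with the library labelled KO water replicate 1 ringed. WT libraries after DSS lie lowest for both genes and KO libraries on water other than the ringed one highest, and KO libraries after DSS lie above WT libraries on water in Smoc2 at similar Lgr5.

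The other genes with the highest correlations to Smoc2 over all libraries were Cp (0.937), the ferroxidase ceruloplasmin, Slc12a2 (0.865), the basolateral sodium-potassium-chloride cotransporter of crypt cells, Wnk2 (0.856), a kinase that acts on such cotransporters, and Bbs5 (0.853), a part of the ciliary BBSome. On deviations from the group means, the closest were Gm11437 (0.894), Lgr5, Psmd1 (0.841), Hsf2bp (0.839) and Gpatch2 (0.834), of which only Lgr5 was also among the first 5 over all libraries.

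Smoc2 was set beside other crypt base and stem cell genes. Its place among them between the genotypes follows in part from its choice and is a description. With Smoc2 itself counted, its log2 fold change between the genotypes was the second highest of 28 tested genes after DSS, behind Olfm4, and the third on water, behind Slc12a2 and Lgr5. The other 27 had a median log2 fold change of 0.12 after DSS and 0.01 on water, beside 0.00 and -0.01 over all tested genes. Beside 8.44% of all tested genes called on water, edgeR called 2 of the 27 higher in KO and 1 lower. These were Lgr5, Slc12a2 (1.06, SE 0.19, edgeR adjusted p = 0.021) and Reg4 (-1.32, SE 0.36, edgeR adjusted p = 0.039), a secreted lectin of colonic deep crypt secretory cells.

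Without KO water replicate 1, 3 of the 27 were higher and 5 lower in KO on water, beside 7.66% of all tested genes called. Slc12a2 was then at 1.15 and Reg4 at -1.61. The lower ones included Ascl2, the transcription factor of Lgr5-positive stem cells (-2.02, SE 0.31, edgeR adjusted p = 0.00598), which was named after its values were seen. Over all 14 libraries its log2 fold change was -1.31 (SE 0.40, edgeR adjusted p = 0.051). After DSS, edgeR over all libraries called 0 of the 27 between the genotypes, with 3 at an unadjusted p below 0.05 (670 of all 15127). DESeq2 over all libraries called 1 higher, beside 51 of all genes. On the 6 libraries after DSS, 26 of them were tested. There edgeR called 1 higher and DESeq2 2 higher, beside 114 and 492 of all genes, and both called 0 lower. After DSS, 18 of the 27 lay above 0. The called crypt base genes thus went both ways in KO on water, and the few called after DSS were higher.

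Between DSS and water in WT, 4 of the 27 lay above 0 and the median was -0.41 beside -0.01 over all tested genes, and Smoc2 at -0.82 was 24th from the top of 28. In KO, 5 of the 27 lay above 0 with a median of -0.20 beside -0.02. edgeR called 0 of the 27 in either genotype, with 9 in WT and 7 in KO at an unadjusted p below 0.05 (3174 and 1271 of all 15127). DESeq2 with all libraries called 6 lower in WT, beside 851 of all genes, and 0 in KO.

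Smoc proteins belong to the extracellular regulators of BMP signaling, and a list of BMP-SMAD genes was set beside them. Besides response genes, its tested genes included the ligands Bmp2 and Bmp7 and the receptors Bmpr1a, Bmpr2 and Acvr1. Counts and medians over the list therefore do not describe response genes alone. In KO on water, edgeR called 3 of the 19 tested genes of this list lower and 1 higher. DESeq2 with all libraries called 3 lower and 4 higher, beside 2659 of all genes, so the split depended on the tool. Id1, an inhibitor of bHLH transcription factors and a direct target, fell by 1.46 (SE 0.40, edgeR adjusted p = 0.041), the inhibitory Smad6 fell by 1.15 (SE 0.32, edgeR adjusted p = 0.041) and the transcription factor Atoh8 fell by 1.66 (SE 0.45, edgeR adjusted p = 0.038), all on the log2 scale and beside 8.44% of all genes called. Skil, a corepressor of Smad complexes, rose by 1.02 (SE 0.18, edgeR adjusted p = 0.021). The calls on water of these genes and of the crypt base genes were not made by edgeR on the 8 water libraries alone, where 1 gene of all was called. With single libraries left out, the call was lost in 12 of 14 cases for Id1, 11 for Smad6, 10 for Atoh8, 8 for Reg4, 7 for Lgr5 and 3 each for Slc12a2 and Skil, with adjusted p-values of up to 0.172 over all alternatives in edgeR or DESeq2.

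The library labelled KO water replicate 1 also held the Id1 level of WT, with 6879 raw counts against 803 to 1768 in the other 3 libraries of its group. Without it 6 of 18 fell and 1 rose, beside 7.66% of all tested genes called. Id1 then fell by 2.33 (SE 0.22, edgeR adjusted p = 0.00012), Smad6 by 1.64 and Atoh8 by 2.29, and Skil rose by 1.07. After DSS, 0 of 19 were called by edgeR over all libraries, with 5 at an unadjusted p below 0.05 (670 of all 15127). DESeq2 called 0 over all libraries and 5 lower on the 6 after DSS, beside 51 and 492 of all genes. Without KO water replicate 1, Id1 and Id3 were lower in KO after DSS by edgeR, among 8 genes called in all. The median over the 19 was -0.02 on water and -0.16 after DSS.

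The other secreted BMP antagonists were mostly rare. Of 19 found in the table, 7 were tested, and edgeR called 0 between the genotypes on water or after DSS. At an unadjusted p below 0.05 there were 3 and 0, beside 4436 and 670 of all 15127. DESeq2 with all libraries called 1 higher on water, beside 2659 of all genes, and 0 after DSS. The 3 with most counts were Twsg1, which binds BMPs together with chordin (log2 fold change on water 0.40, SE 0.16, edgeR adjusted p = 0.10), Crim1, a transmembrane BMP-binding protein (0.67, SE 0.20, edgeR adjusted p = 0.051), and Nbl1, of the DAN family (-0.98, SE 0.53, edgeR adjusted p = 0.23).

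**Figure D4:**
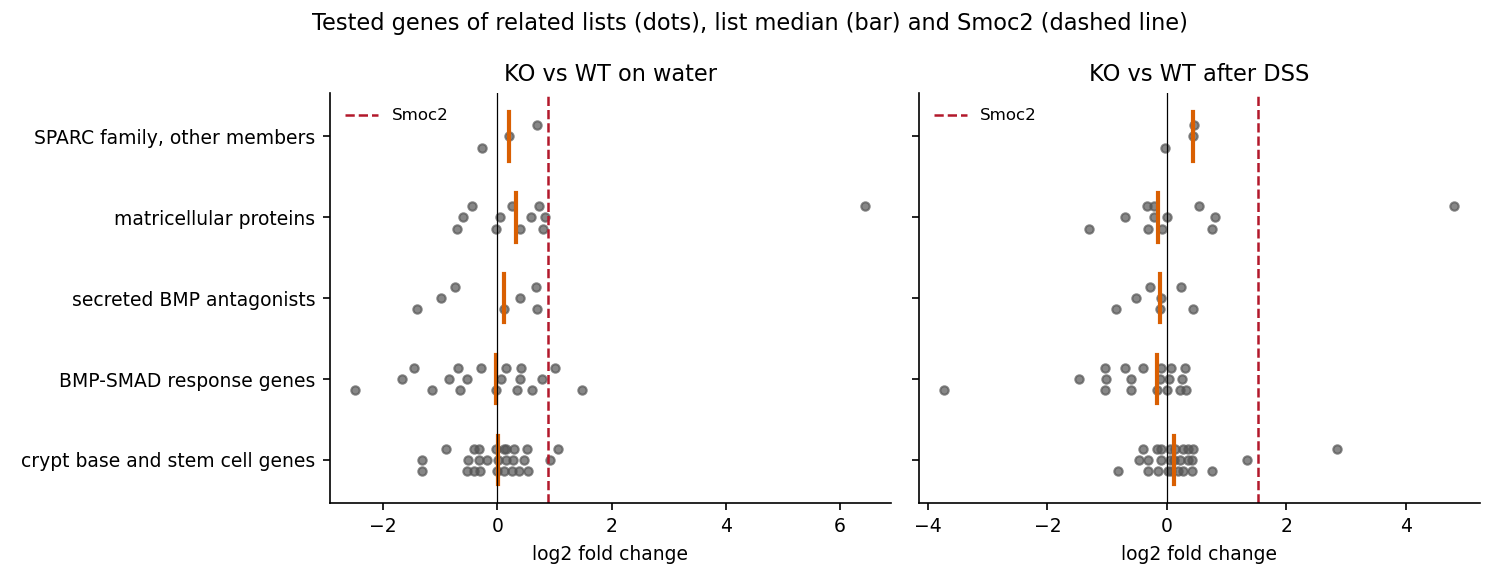
Log2 fold changes of KO against WT on water (left) and after DSS (right) for the tested genes of 5 lists, without the members. Dots are genes, the orange bar is the list's median, and the dashed line is Smoc2 at 0.89 on water and 1.53 after DSS. Most genes of all 5 lists lie to the left of the dashed line in both panels.

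Smoc1, the paralog of Smoc2, was close to the limit of detection. Raw counts were 12, 20, 1 and 21 in WT on water, 7, 4, 28 and 18 in the libraries labelled KO on water, 5, 0 and 14 in WT after DSS, and 15, 12 and 10 in KO after DSS. High and low libraries occurred in every group on water, and all comparisons overlapped.

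The means of Smoc1 were 0.915 ± 0.947 CPM (SD, n = 4) in WT and 0.665 ± 0.460 CPM (SD, n = 4) in KO on water, or 0.784 ± 0.482 CPM (SD, n = 3) in KO without replicate 1. After DSS they were 0.273 ± 0.297 CPM (SD, n = 3) in WT and 0.628 ± 0.142 CPM (SD, n = 3) in KO. Per kb, its level was below 0.27 CPM per kb in every group, and 2.26 to 8.74% of the tested genes lay lower. A difference in Smoc1 was not detectable at this depth: the log2 fold change of KO against WT was 1.17 after DSS (SE 1.03, edgeR adjusted p = 1.00) and -0.39 on water (SE 0.86, edgeR adjusted p = 0.80, or -0.14 without KO water replicate 1), and that of DSS against water was -1.65 in WT (SE 1.00, edgeR adjusted p = 0.35) and -0.09 in KO (SE 0.92, edgeR adjusted p = 0.99, or -0.34 without that library). The difference between the responses was 1.55 (SE 1.34, edgeR adjusted p = 0.76), or 1.31 without that library. The value after DSS depended on single libraries, with 0.60 without WT DSS replicate 2 and 2.39 without WT DSS replicate 3.

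The genes most like Smoc1 over all libraries were Pyroxd2 (0.768), AI427809, Zfp958, Dynlt1b and Fdxacb1 (0.751), and on deviations from the group means Tdrd1 (0.878), Hmgb1-ps1, Oas1a, Hps1 and Dhx58 (0.828). In a transcript with at most 28 counts per library such correlations are no finding. Its correlation with Smoc2 was 0.40 over all libraries and 0.14 on the deviations.

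Sparc, the collagen-binding founder of the family, was also rare in these epithelial libraries. Its mean after DSS was higher in KO than in WT, but edgeR over all 14 libraries did not call the difference. Raw counts were 2, 1 and 5 in WT and 19, 19 and 20 in KO after DSS. On water they were 7, 1, 14 and 3 in WT and 39, 0, 17 and 95 in the libraries labelled KO. After DSS the groups did not overlap, and on water the KO libraries spanned the whole range, from none to the highest count of all. Such a separation of few libraries is a description, since its share over all genes is not given.

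After DSS, Sparc was at 0.116 ± 0.0850 CPM (SD, n = 3) in WT and 0.981 ± 0.0411 CPM (SD, n = 3) in KO, a ratio of 8.46, with the lowest KO library 4.44 times the highest WT library. The log2 fold change was 3.00 (SE 1.27) in the model of all 14 libraries and was not called (edgeR adjusted p = 1.00, unadjusted p = 0.031). With edgeR on the 6 libraries after DSS alone, the SE was 0.51 and the adjusted p 0.040, with 114 of 14241 genes called (0.801%). In these 6 libraries Sparc reached 10 counts, the filter, only in KO, so it entered the test through the group where it was high. Over all 14 libraries, WT water replicate 3 was the only WT library to reach 10 counts, so there too Sparc was tested mainly through KO. The model of all 14 libraries also takes in the spread of those on water. Over all alternatives, the adjusted p from edgeR or DESeq2 ran from 0.00703 to 1.00. From these same libraries the study reported a signature of matrix constituents as enriched in KO after DSS. The difference of Sparc is therefore not independent of that result.

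On water, Sparc was at 0.441 ± 0.481 CPM (SD, n = 4) in WT and 1.87 ± 2.25 CPM (SD, n = 4) in KO, or 1.93 ± 2.75 CPM (SD, n = 3) without KO replicate 1 and 0.805 ± 0.863 CPM (SD, n = 3) without KO replicate 4. The log2 fold change was 2.17 (SE 1.01, edgeR adjusted p = 0.16). Without KO replicate 1 it was 2.20 (SE 1.09, edgeR adjusted p = 0.20), without KO replicate 4 it was 1.00 and without WT replicate 3 it was 3.24, and over all alternatives the adjusted p from edgeR or DESeq2 ran from 0.092 to 0.569. Between DSS and water, it was -1.76 in WT (SE 1.27, edgeR adjusted p = 0.43) and -0.93 in KO (SE 1.01, edgeR adjusted p = 0.85), and the difference of the responses was 0.83 (SE 1.56, edgeR adjusted p = 0.89). The last values were -0.97 and 0.79 without KO water replicate 1, and without KO water replicate 4 the log2 fold change in KO turned to 0.26, while without WT water replicate 3 the difference of the responses turned to -0.24. None of these differences passed the threshold under any alternative, while the one on water had an unadjusted edgeR p of 0.047 over all libraries.

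**Figure D5:**
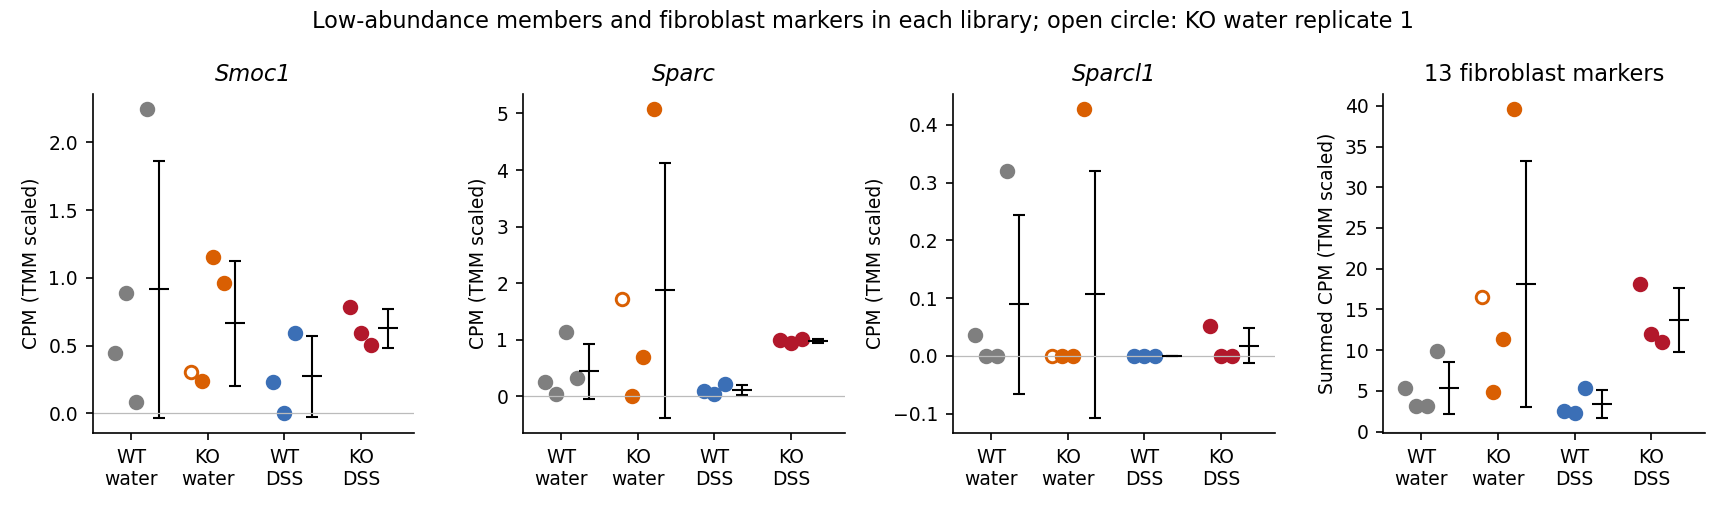
Smoc1, Sparc and Sparcl1 in CPM, and the summed CPM of 13 fibroblast markers, in each of the 14 libraries. Points are libraries, the open circle is the library labelled KO water replicate 1, and bars give the mean ± SD with it included. Sparc in KO after DSS lies at 0.936 to 1.01 CPM and in WT after DSS at 0.0457 to 0.211 CPM, and KO water replicate 4 is highest in Sparc, Sparcl1 and the fibroblast markers.

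Markers of fibroblasts, which are known to make Sparc, are given beside it. Of 14 markers, 8 reached enough counts to be tested, and Col1a2, Col6a1 and Col6a2 did so through KO libraries alone, with at most 8 counts in a WT library, so that no count of calls or median over the 8 is used. The whole list summed to 17.67 to 20.001 CPM in WT and 26.8 to 65.4 CPM in KO on water, and to 18.3 to 19.5 CPM in WT and 32.3 to 41.2 CPM in KO after DSS.

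Fbln1 held a large part of that sum. Without it, the other 13 summed to 3.10 to 9.84 CPM in WT and 4.83 to 39.6 CPM in KO on water, and to 2.33 to 5.39 CPM in WT and 10.96 to 18.15 CPM in KO after DSS. The genotypes overlapped in this sum on water and not after DSS. The defining marker Pdgfra reached at most 10 counts in a library and Lum at most 1. Sums of pericyte, endothelial and immune markers overlapped between the genotypes in both treatments, and those of smooth muscle markers overlapped on water but after DSS ran from 51.8 to 66.9 CPM in WT and from 40.8 to 50.4 CPM in KO. After DSS, squamous epithelium markers (12.4 to 21.7 CPM in WT and 6.45 to 12.1 CPM in KO) and colon epithelium markers (25886 to 28933 CPM in WT and 25003 to 25510 CPM in KO) did not overlap either. Sprr1a, at a mean of 15.0 CPM in WT and 8.41 CPM in KO after DSS, held most of the squamous sum. Without a share over all genes, non-overlap of these sums is a description. In bulk samples, fewer cells of a type and less RNA per cell cannot be told apart, and the part of fibroblasts in the difference of Sparc was not tested.

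Within the 7 KO libraries, log2 CPM of Sparc correlated with the log2 sum of these 13 markers (Pearson r = 0.948, exact permutation p = 0.0115, adjusted over 4 relations 0.046; Spearman rho = 0.714, exact permutation p = 0.0881, adjusted 0.219). Without KO water replicates 2 and 4, the libraries farthest from the median of the sum, r was 0.581, so the relation rests on those libraries. Within the 7 WT libraries, r was 0.349 (exact permutation p = 0.452, adjusted 0.562) and rho 0.679 (exact permutation p = 0.11, adjusted 0.219), and r was 0.302 without the 2 farthest. Each genotype holds 4 libraries on water and 3 after DSS, too few for either alone. The permutations exchange libraries on water with those after DSS, so a difference between the treatments can enter these p-values. KO water replicate 1 was kept in them. The sum without Fbln1 was chosen after the data were seen, and the adjustment does not cover that choice. These p-values are therefore no support for a link, and the relation with the whole marker list is not given.

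For Smoc2, no such relation was detected. Its r with the same sum was 0.366 within WT (exact permutation p = 0.411, adjusted 0.562; rho = 0.464, exact permutation p = 0.302, adjusted 0.396) and -0.281 within KO (exact permutation p = 0.562, adjusted 0.562; rho = -0.393, exact permutation p = 0.396, adjusted 0.396). Without the 2 farthest libraries, r was 0.296 and -0.409. Smoc2 alone had a higher CPM than the 13 markers together in each of the 14 libraries. With Fbln1 in the sum, the values in WT DSS replicate 2 were close, at 19.5 CPM of Smoc2 and 19.1 CPM of markers. Such levels do not show which cells hold the transcript, and the part of fibroblasts in Smoc2 was not tested.

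The genes most like Sparc over all libraries were Igfbp6 (0.829), a secreted binding protein of insulin-like growth factors, Usp10, Apbb1ip, 2310030N02Rik and Lgals1 (0.777), and on deviations from the group means Dmwd (0.954), Dhx37, Rhbg, Fev and Nthl1 (0.932). With counts of Sparc between 0 and 95 per library, these correlations are no finding.

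Sparcl1 was at the floor of detection. Raw counts were 1, 0, 0 and 3 in WT on water, 0, 0, 0 and 8 in the libraries labelled KO on water, 0 in all 3 WT libraries after DSS, and 1, 0 and 0 in KO after DSS. A count of 0 allows up to 3 counts, or 0.126 to 0.138 CPM, in the WT libraries after DSS, for counting error only. It did not pass the filter on low counts. Fitted without a filter, edgeR called it in 0 of 5 comparisons, with 0 at an unadjusted p below 0.05 (lowest 0.0956, DSS against water in WT), and no difference was detectable at this depth.

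The remaining family members, such as the testican Spock2, were rare as well. Of 7 other SPARC family genes in the table, 3 were tested, and edgeR and DESeq2 called 0 of them in any comparison, with 0 at an unadjusted p below 0.05. Their means across the groups were 2.77 to 4.43 CPM for Fstl4, 0.811 to 1.41 CPM for Spock2 and 0.264 to 0.771 CPM for Fstl3. The log2 fold change of KO against WT after DSS was 0.46 for Fstl4 (SE 0.41), -0.03 for Spock2 (SE 0.55) and 0.44 for Fstl3 (SE 0.94).

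Of 29 other matricellular genes, such as thrombospondins, fibulins and CCN proteins, 12 were tested, with a median log2 fold change of KO against WT of 0.33 on water and -0.14 after DSS. edgeR called 1 on water (beside 8.44% of all genes), Fbln2, a fibulin of basement membranes (edgeR adjusted p = 0.041), and called 0 in the 8 water libraries alone. Fbln2 passed the filter on low counts only through KO libraries, where it is high, so this call is no support for a difference. Its raw counts were 0 in all 7 WT libraries, 21, 0, 11 and 14 in the libraries labelled KO on water, and 2, 2 and 6 in KO after DSS. Without KO water replicate 1, edgeR called Fbln1 (0.77, SE 0.18, edgeR adjusted p = 0.027) and Fbln2 had too few counts to be tested. After DSS, edgeR called 0 between the genotypes, with 5 at an unadjusted p below 0.05 (670 of all 15127). DESeq2 called 0 over all libraries and 4 among the 6 after DSS, beside 51 and 492 of all genes.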

How the data were processed

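RNA-seq of isolated colon epithelium was analysed in 14 libraries, grouped by their deposited labels. Per the labels and methods, the authors used HISAT2 for alignment (build mm9) and featureCounts for counting, and deposited raw, not normalized, counts of 37680 genes. Gene models came from GENCODE M1, which lists 37310 of them, and symbols from a gene name table.

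The 15127 genes that reached 10 counts in 3 or more libraries entered edgeR 4.0.16 (TMM, quasi-likelihood test, 1 model of all libraries, Benjamini-Hochberg adjustment, threshold 0.05). Total counts set the precision, and floors of 3 counts cover counting error only. Likeness was Pearson's r of log2 CPM (prior count 2). DESeq2 1.42.0, models of the 2 groups compared, other scalings, other filters, a block for the replicate number or the prefix of the name, and omission of single libraries were alternatives. DESeq2 without KO water replicate 1 in the 2 groups compared and the fibroblast sum without Fbln1 were chosen after seeing the data.

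The named genes are the members, Smad4, for each tested member the 5 genes most like it, and from each list up to 4 genes called between the genotypes or else the 3 with most counts. Id3, Mal, Olfm4, Fbln1 and Ascl2 were named after their values were seen. Members and lists were chosen with earlier results of these data known. The scripts were tested on simulated data. R 4.3.3, Python 3.11.15 and SciPy 1.17.1 were used.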

Additional observations from a re-analysis of the deposited data

Results flagged for a closer look

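In groups of 4, the gap between the highest or lowest library and its nearest neighbour was divided by the range of the group. Of 14 groups examined, 3 exceeded Dixon's critical value, which chance passes in about 1 in 20 groups of normally distributed values. That rate does not hold for Sparcl1, which is at the floor of detection, so no excess over chance is read. In the group labelled KO on water, replicate 1 stood apart in Smad4 at 158 CPM, with a gap of 0.905 of the range. Replicate 4 of that group stood apart in Sparcl1, with all 8 counts of the group (0.428 CPM, gap 1 of the range). In WT on water, replicate 4 stood apart in Sparcl1 with 3 counts (0.321 CPM, gap 0.885 of the range), and it is also the shallowest library at 12882827 counts. Smoc1, Smoc2, Sparc, Lgr5 and the sum of 13 fibroblast markers had no library past this value.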

How the results depend on the processing

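Smoc2 was higher in KO under all alternatives tried, from 1.34 to 1.68 after DSS and from 0.80 to 1.06 on water over the left-out libraries. On water it was 0.64 with a block for the name prefix and 1.15 with library totals, a scaling that put the median of all tested genes at 0.22 there and at 0.21 for DSS against water in WT, where Smoc2 was then at -0.57. These values moved by less than the SD of log2 CPM within groups (0.27). The difference of its responses was 1.04 with the prefix block, and in KO alone that block turned the sign of DSS against water for Smoc2 (0.26), Smoc1 (0.13) and Sparc (1.44). The replicate block turned it for Smoc1 (0.51) and Sparc (0.48). Whether the replicate numbers pair the libraries is not stated. Same-numbered libraries of different groups correlated at -0.081 to 0.348 in their deviations (median -0.0234), and other-numbered ones at -0.264 to 0.209. The highest value was that of WT and KO water replicates 4, which also share the prefix MP. With so few libraries per group, such correlations cannot exclude a pairing. With the numbers as a block, 2 genes were called between the genotypes after DSS and 2977 on water. Between DSS and water, 0 were called in WT and 6 in KO, and 1 in the difference of responses.

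Smoc2 passed the threshold between DSS and water in WT with DESeq2 (-0.83 with all libraries and -0.83 with 2 groups) and without a filter (-0.81), and over the left-out libraries ran from -0.97 to -0.63, passing without KO water replicate 4 (edgeR adjusted p = 0.042). Sparc after DSS passed in both models of the 6 DSS libraries (edgeR 3.00, DESeq2 3.06) and in the 5 libraries with prefix D (3.73). In each of these it met the filter on low counts only through KO. Left-out libraries turned Smoc1 on water (-0.80 to 0.44, positive without WT replicate 4), Smoc1 and Sparc between DSS and water in KO (-0.36 to 0.32 and -1.33 to 0.26, the latter positive without KO water replicate 4), and the difference of the Sparc responses (-0.24 to 2.00, negative without WT water replicate 3). Reg4 after DSS turned with the prefix block (0.20), in the 5 libraries with prefix D (0.21) and between -0.48 and 0.24 over left-out libraries. The causes were not tested.

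Counts of called genes depended on the model throughout. After DSS, KO against WT gave 51 with DESeq2, 114 and 492 with edgeR and DESeq2 of the 6 libraries, 7 without a filter, 1 with the prefix block, 45 in the 5 libraries of prefix D, and 0 to 8 over left-out libraries. On water it gave 2659 with DESeq2, 1 and 796 with 2 groups, 13 and 626 with 2 groups without KO replicate 1, 814 with library totals, 2018 with the prefix block and 4 to 4104 over left-out libraries. DSS against water in WT gave 851 with DESeq2, 1789 with DESeq2 of 2 groups, 138 without a filter, 2 with the prefix block and 0 to 537 over left-out libraries. In KO it gave 70 with DESeq2, 1 and 70 with 2 groups, 1 and 65 with 2 groups without KO water replicate 1, 4 with library totals, 1 with the prefix block and 3 to 11 over left-out libraries. The difference of responses gave 8 with DESeq2, 2 without a filter and 1 to 6 over left-out libraries. Depth limits Smoc1, Sparc and Sparcl1, with at most 28, 95 and 8 counts in a library.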
